A study of Mus musculus with 4 samples.

Results

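Wnt signalling genes were examined in RNA of calvarial bone, frontal and parietal, taken on postnatal day 21 from wild-type mice and *Twist1*+/- mice. The set held 56 genes, chosen by symbol and not by their values, but with earlier results of these data known. All 56 were found among the 23946 genes of the RNA-seq tables. They comprised 19 Wnt ligands, 10 Frizzled receptors, 5 coreceptors, 12 secreted inhibitors, 7 intracellular components or targets and 3 R-spondins. The 4 libraries were wild-type frontal, wild-type parietal, *Twist1*+/- frontal and *Twist1*+/- parietal bone, 1 library for each genotype and bone, all on the C57BL/6J background. Neural crest gives rise to the frontal bone and mesoderm to the parietal bone, and the comparisons ask how loss of 1 copy of *Twist1* and the origin of the bone bear on gene expression. RNA came from 12 mice of each strain, the number of animals behind each library is not given in the sources used here, and the bone tissue carried its pericranium and dura mater. *Twist1*+/- mice lack 1 working copy of the gene in every tissue, so the difference is not limited to bone cells.

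Wnt proteins are secreted lipid-modified ligands that bind Frizzled receptors together with the coreceptors *Lrp5* and *Lrp6*, which leads to the accumulation of β-catenin (*Ctnnb1*) and, with the transcription factors *Lef1* and *Tcf7*, to the expression of targets such as *Axin2*. Other Wnts act through *Ror1* and *Ror2* without β-catenin. Secreted antagonists limit the pathway at the cell surface, either by binding the ligands (Sfrp proteins, *Frzb*, *Wif1*), by binding *Lrp5* and *Lrp6* (*Dkk1*, and the osteocyte product sclerostin, encoded by *Sost*) or by removing the lipid from the ligand (*Notum*), whereas R-spondins amplify it. In bone, β-catenin signalling favours osteoblast formation, and sclerostin is a known brake on bone formation.

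Values are FPKM (fragments for each kilobase of transcript, relative to library depth), 1 value per gene and library. Because each condition had 1 library, no difference below has a replicate check, and neither a standard deviation nor a p-value can be given. A gene was counted as different when its ratio was past 3-fold with 1 FPKM or more in the higher library, and genes under 1 FPKM in both libraries were left out of a comparison. The targeted gene *Twist1* was at 59 FPKM in frontal and 52.5 in parietal bone of wild-type mice and at 30.4 and 50.7 FPKM in those labelled *Twist1*+/-. The parietal value went against the label, so that library is called the labelled *Twist1*+/- parietal library, and each direction drawn from it rests on the label. Osteoblast markers were abundant in all libraries, with *Bglap* (osteocalcin) at 5220 to 7982 FPKM, but *Col1a1* and *Col1a2* were listed at 0 in the 3 libraries other than wild-type parietal bone. Markers of other tissues differed widely. In wild-type parietal bone the 12 nasal epithelium markers summed to 84.9 FPKM, against 686 to 2709 FPKM elsewhere. In wild-type frontal bone the 12 meningeal markers summed to 2090 FPKM, against 165 to 528 FPKM elsewhere, and the 14 skeletal muscle markers to 147 FPKM, against 1654 to 4483 FPKM. In such bulk tissue, fewer cells of a type and less RNA per cell cannot be told apart.

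Most of the Wnt pathway was expressed in all 4 bones. Of the 56 genes, 36 reached 1 FPKM in every library and 49 in 1 library or more, and 12 reached 10 FPKM throughout. The highest level in 3 of the libraries was that of *Ctnnb1*, at 328 FPKM in frontal and 457 in parietal bone of wild-type mice and at 341 and 394 FPKM in those labelled *Twist1*+/-. Its largest ratio between any of the compared libraries was 1.39-fold. *Wif1*, the Wnt inhibitory factor, was at 283, 188, 339 and 452 FPKM in the same order of libraries, and was the highest in the last of them. Ligands were far lower, and the 19 of them summed to 30.6 to 44.5 FPKM per library, against 54.5 to 67.6 FPKM for the 10 Frizzled receptors and 452 to 1064 FPKM for the 12 secreted inhibitors. *Wnt8a* and *Wnt8b* were listed at 0 in all libraries and *Wnt3a* in wild-type parietal bone, and a value of 0 in these tables is not proof of absence. *Wnt3*, *Wnt9b*, *Fzd10* and *Rspo1* had values above 0 but below 1 FPKM in every library, and *Wnt3a* was below 1 FPKM in the 3 libraries where it had a value.

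**Figure D1:**
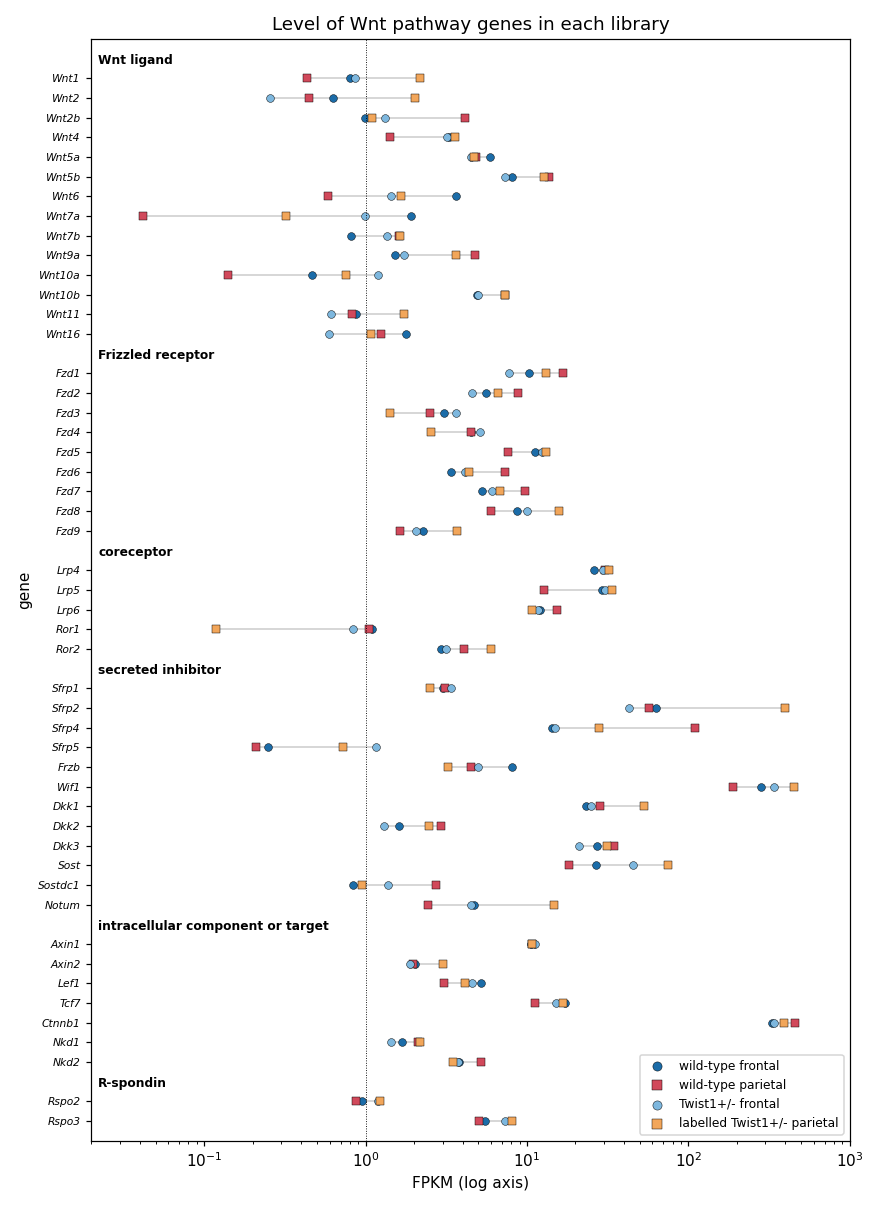
Level of the 49 Wnt pathway genes that reached 1 FPKM in any library, by role. Each point is 1 library (horizontal axis, FPKM on a log scale; dotted line at 1 FPKM; circles frontal, squares parietal), and the grey line spans the libraries. *Ctnnb1* and *Axin1* lie close together in the 4 libraries, whereas *Sfrp2*, *Sfrp4*, *Wnt7a* and *Ror1* are spread widely.

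Between the parietal bones, 8 of the 46 Wnt pathway genes that reached 1 FPKM had ratios past 3-fold (17.4%). They included 5 that were higher and 3 that were lower in the labelled *Twist1*+/- parietal library. Among all 13914 such genes the share was 8.19%, with 5.25% higher and 2.94% lower. The higher genes were the inhibitors *Sfrp2*, *Notum* and *Sost* and the ligands *Wnt1* and *Wnt2*, and the lower genes were the inhibitor *Sfrp4*, the ligand *Wnt2b* and the receptor *Ror1*. The median log2 ratio of the 46 genes was 0.02, beside -0.06 for all genes with a ratio. Those nearest to the threshold were *Wnt2b* inside it, at 3.83-fold, and *Sostdc1* outside it, at 2.88-fold.

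The largest difference in amount was that of *Sfrp2*, a secreted Frizzled-related protein (chr3:83570243-83578238 of mm9, forward strand). Its level was 63.1 FPKM in frontal and 57.4 in parietal bone of wild-type mice and 42.8 and 399.8 FPKM in those labelled *Twist1*+/-. The first 3 libraries lay close together, and the last stood 6.96-fold above wild-type parietal bone (log2 ratio 2.80) and 9.34-fold above *Twist1*+/- frontal bone (3.22). In rank, *Sfrp2* was 259 from the top among the log2 ratios of the parietal genotype comparison, but 6 from the top between the *Twist1*+/- bones. It held 37.6% of the summed level of the 12 inhibitors in the labelled *Twist1*+/- parietal library, against 8.47% to 13.8% in the others. An annotated gene on the opposite strand, *Gm16790*, overlaps an exon of *Sfrp2*, and whether reads were counted by strand is not given in the sources used here. The same holds for *Ctnnb1*, *Axin2*, *Wnt5a*, *Wnt7b* and *Wnt11*, which also share exon positions with a gene on the other strand.

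*Notum*, the carboxylesterase that inactivates Wnt ligands (chr11:120515102-120522489, reverse strand), was at 4.69 FPKM in frontal and 2.44 in parietal bone of wild-type mice and at 4.51 and 14.7 FPKM in those labelled *Twist1*+/-. Its ratio between the parietal bones was 6.04-fold (log2 2.60), and wild-type parietal bone was the lowest of the 4. *Notum* also has annotated opposite-strand neighbours that share exon positions. *Sost* (chr11:101823772-101828329, reverse strand) was at 26.7, 18.3, 45.5 and 75.1 FPKM in the same order. Wild-type parietal bone again had the lowest and the labelled *Twist1*+/- parietal library the highest value, a ratio of 4.11-fold (log2 2.04). Of the 7 osteocyte markers listed beside it none passed 3-fold in this comparison, where 8.19% of all genes did. Their summed level was 763 FPKM in wild-type parietal and 601 FPKM in the labelled *Twist1*+/- parietal library. In wild-type and *Twist1*+/- frontal bone the sum was 353 and 388 FPKM. The part of osteocytes in the *Sost* ratios was not tested.

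*Sfrp4*, another Frizzled-related inhibitor (chr13:19714973-19724863, forward strand), had the opposite pattern. It was at 14.3 and 15.0 FPKM in the frontal bones of wild-type and *Twist1*+/- mice, and at 109.8 and 27.8 FPKM in the parietal bones. Wild-type parietal bone was far above the other libraries, and the ratio between the parietal bones was 3.95-fold (log2 -1.98). After subtraction of the median log2 ratio of genes of similar GC content this became -1.44, which is under 3-fold.

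None of the other inhibitors that reached 1 FPKM passed 3-fold between the parietal bones. *Sostdc1* was 2.88-fold lower in the labelled *Twist1*+/- parietal library. *Sfrp5*, below 1 FPKM in both parietal libraries and so not counted, was 3.44-fold higher there. *Wif1* was 2.41-fold and *Dkk1*, the *Lrp5* and *Lrp6* antagonist, 1.89-fold higher in the labelled *Twist1*+/- parietal library, with *Dkk1* at 23.4, 28.2, 25.0 and 53.3 FPKM in wild-type frontal, wild-type parietal, *Twist1*+/- frontal and labelled *Twist1*+/- parietal bone. *Dkk3*, a Dickkopf relative, was at 27.3, 34.6, 21.0 and 31.5 FPKM, and its parietal ratio was 1.10-fold. *Sfrp1*, *Frzb* and *Dkk2* had parietal ratios of 1.25-fold, 1.40-fold and 1.19-fold, all lower in the labelled *Twist1*+/- parietal library. Summed over the 12 inhibitors, the level was 456 FPKM in frontal and 452 in parietal bone of wild-type mice and 505 and 1064 FPKM in those labelled *Twist1*+/-. Without *Sfrp2* the sums were 393, 394, 462 and 664 FPKM, and without *Wif1* instead they were 173, 264, 166 and 612 FPKM. The last library remained the highest in either case, but *Sfrp2* held 37.6% and *Wif1* 42.5% of its full sum. Of the 11 inhibitors that reached 1 FPKM in the parietal pair, 5 were higher and 6 lower in the labelled *Twist1*+/- parietal library. Their median log2 ratio was -0.13, beside -0.06 for all genes, so the higher sum was not a rise of most inhibitors.

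**Figure D2:**
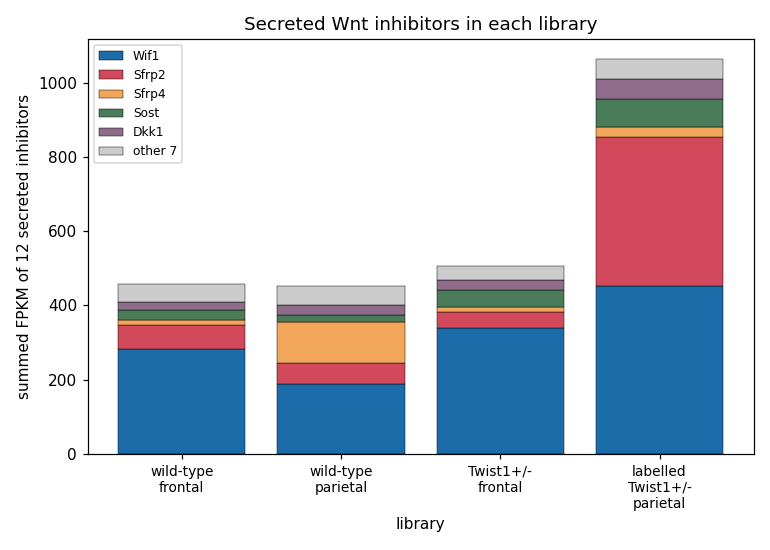
Summed FPKM of the 12 secreted Wnt inhibitors in each library (bars, linear axis from 0), divided by gene. The first 3 libraries reach 452 to 505 FPKM and the labelled *Twist1*+/- parietal library 1064 FPKM, of which *Sfrp2* holds 37.6% and *Wif1* 42.5%. The *Sfrp4* share is widest in wild-type parietal bone.

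Among the ligands, *Wnt1* was at 0.803 FPKM in frontal and 0.436 in parietal bone of wild-type mice and at 0.859 and 2.19 FPKM in those labelled *Twist1*+/-, a parietal ratio of 5.02-fold (log2 2.33). *Wnt2* was at 0.631, 0.449, 0.256 and 2.04 FPKM in the same libraries, a parietal ratio of 4.55-fold (log2 2.19). Both were low everywhere, and both ratios were under 3-fold once 1 FPKM was added to each value (log2 1.15 and 1.07). *Wnt2b* (chr3:104747723-104764627, reverse strand) was at 0.986, 4.16, 1.33 and 1.09 FPKM, so that wild-type parietal bone stood alone at 3.83-fold above the labelled *Twist1*+/- parietal library. The ligands with the highest levels had similar listed values in the parietal bones. *Wnt5b* was at 8.09 and 13.7 FPKM in wild-type frontal and parietal bone and at 7.33 and 12.7 FPKM in those labelled *Twist1*+/-, so that both parietal libraries were above both frontal ones. In the parietal pair *Wnt10b*, which promotes osteoblast formation, was at 7.35 and 7.34 FPKM, and *Wnt5a*, a ligand of *Ror2*, was at 4.83 and 4.70 FPKM. After subtraction of the median log2 ratio of genes of similar GC content, *Wnt5b* had a parietal log2 ratio of -0.69. Those of *Wnt10b* and *Wnt5a* were then -0.58 and 0.40, so the closeness depends on leaving the GC trend in. The other ligands that reached 1 FPKM in the parietal comparison (*Wnt4*, *Wnt6*, *Wnt7b*, *Wnt9a*, *Wnt11* and *Wnt16*) had ratios from 1.01-fold to 2.83-fold, the highest being that of *Wnt6*. *Wnt7a* and *Wnt10a*, below 1 FPKM in both parietal libraries and so not counted, were at 0.0416 and 0.141 FPKM in the wild-type and at 0.323 and 0.756 FPKM in the labelled *Twist1*+/- parietal library.

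Promoter sequences are shown for the inhibitors *Sfrp2* and *Sost* and the ligand *Wnt2b*, 3 of the members past 3-fold between the parietal bones, and for *Dkk1*, which held TCF/LEF letters, as the stretch of 250 bases before the RefSeq transcript start in GRCm38.p6, a later build than that of the expression values. They are given 5′ to 3′ on the strand of the gene. Capitals mark matches to the E-box CANNTG, the motif class bound by *Twist1* and its partners, and to the TCF/LEF letters CTTTG followed by AA, AT, TA or TT, on either strand. The *Sfrp2* stretch lies at chr3:83766071-83766320 (+), that of *Sost* at chr11:101967016-101967265 (-), that of *Wnt2b* at chr3:104961710-104961959 (-) and that of *Dkk1* at chr19:30549497-30549746 (-).
*Sfrp2*: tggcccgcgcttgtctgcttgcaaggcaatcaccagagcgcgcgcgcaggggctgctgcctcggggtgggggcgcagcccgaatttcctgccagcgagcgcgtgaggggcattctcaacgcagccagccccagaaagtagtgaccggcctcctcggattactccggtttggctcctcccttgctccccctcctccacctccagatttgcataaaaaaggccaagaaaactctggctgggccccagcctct
*Sost*: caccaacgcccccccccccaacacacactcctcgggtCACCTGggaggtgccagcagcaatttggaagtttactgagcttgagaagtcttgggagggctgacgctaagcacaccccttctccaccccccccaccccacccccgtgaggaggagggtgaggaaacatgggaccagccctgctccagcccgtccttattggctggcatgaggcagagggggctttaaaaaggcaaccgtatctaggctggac
*Wnt2b*: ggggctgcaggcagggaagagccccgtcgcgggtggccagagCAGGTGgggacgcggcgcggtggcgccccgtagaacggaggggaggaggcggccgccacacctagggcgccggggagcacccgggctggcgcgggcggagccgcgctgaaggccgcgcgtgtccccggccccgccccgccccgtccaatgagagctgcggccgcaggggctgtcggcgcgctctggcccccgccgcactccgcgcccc
*Dkk1*: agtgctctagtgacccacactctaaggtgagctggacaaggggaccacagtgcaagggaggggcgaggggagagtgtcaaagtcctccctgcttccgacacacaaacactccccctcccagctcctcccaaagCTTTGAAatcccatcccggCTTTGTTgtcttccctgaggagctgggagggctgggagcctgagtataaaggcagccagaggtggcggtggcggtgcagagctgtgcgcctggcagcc
The *Sfrp2* stretch, from the gene with the largest difference in amount, held no match to either motif. In *Sost* and *Wnt2b* 1 E-box began 213 and 208 bases before the start. *Dkk1* held 2 TCF/LEF matches, at 117 and 98 bases before the start, and no E-box. In the full windows, which run from 250 bases before to 50 after the start, a TCF/LEF match was found in 6 of 45 windows of 37 Wnt pathway genes (13.3%), against 16.9% of all 32851 windows, and an E-box in 30 of 45 (66.7%), against 72.3%. The 6 windows belonged to *Dkk1*, *Fzd7*, *Lef1*, *Wnt11*, *Wnt3* and *Wnt5b*. A match is a description of the letters and gives no measure of binding.

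None of the 9 Frizzled genes that reached 1 FPKM passed 3-fold between the parietal bones, where 8.19% of all genes did, and 7 of them were within 2-fold, beside 80.4% of all genes. *Fzd8* was at 8.74 and 5.99 FPKM in wild-type frontal and parietal bone and at 10 and 15.7 FPKM in those labelled *Twist1*+/-, and *Fzd9* was at 1.64 and 3.71 FPKM in the parietal pair; these were the 2 outside 2-fold. *Fzd5*, at 11.2, 7.65, 12.4 and 13.1 FPKM in the same order, was likewise lowest in wild-type parietal bone. *Fzd1*, at 10.3, 16.7, 7.80 and 13.1 FPKM, was instead highest there, and both its parietal values were above both frontal ones. The remaining Frizzled genes, *Fzd2*, *Fzd3*, *Fzd4*, *Fzd6* and *Fzd7*, had parietal ratios of 1.34-fold to 1.77-fold, all lower in the labelled *Twist1*+/- parietal library. *Lrp5*, the coreceptor whose loss lowers bone mass, was at 29.4 FPKM in frontal and 12.7 in parietal bone of wild-type mice and at 30.4 and 33.8 FPKM in those labelled *Twist1*+/-. The low value was again that of wild-type parietal bone alone, and the ratio of 2.66-fold lay under the threshold. Its partner *Lrp6*, at 12.1, 15.4, 11.8 and 10.7 FPKM in the same order, and *Lrp4*, which binds sclerostin, at 26.2, 30.3, 29.5 and 32.3 FPKM, had parietal ratios of 1.44-fold and 1.07-fold. The fold of *Ror1* (chr4:99768396-100117370, forward strand) was the largest of this comparison, at 1.10, 1.05, 0.841 and 0.118 FPKM in wild-type frontal, wild-type parietal, *Twist1*+/- frontal and labelled *Twist1*+/- parietal bone. This is an 8.94-fold difference (log2 -3.16) near the floor of 1 FPKM, and on the log2(FPKM + 1) scale, which understates low genes, it was -0.88. *Ror2* went the other way, from 4.08 to 6.03 FPKM.

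Of the intracellular genes and pathway targets, 7 of 7 were within 2-fold between the parietal bones, beside 80.4% of all genes, so nothing about the group is read from this count. *Axin2*, the feedback target most often used as a readout of β-catenin signalling, was at 2.02 FPKM in frontal and 1.97 in parietal bone of wild-type mice and at 1.90 and 3.03 FPKM in those labelled *Twist1*+/-, 1.54-fold higher in the labelled *Twist1*+/- parietal library than in wild-type parietal bone. *Lef1* was 1.34-fold higher there, and *Tcf7*, at 17.3, 11.3, 15.2 and 16.8 FPKM, was 1.48-fold higher. The feedback inhibitors of Dishevelled *Nkd1* and *Nkd2* were 1.03-fold higher and 1.49-fold lower. *Axin1*, a scaffold of the complex that degrades β-catenin, was at 10.6, 10.7, 11.3 and 10.8 FPKM, the closest of all members over the 4 libraries. *Rspo3*, the R-spondin with the highest level, was at 5.54, 5.08, 7.29 and 8.05 FPKM, above wild type in both bones by label, and *Rspo2* was at 0.877 to 1.23 FPKM.

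The parietal ratios followed the GC content of the genes. Across 12554 genes, which are not independent replicates, the log2 ratio of the labelled *Twist1*+/- parietal to the wild-type parietal library had a Spearman rho of 0.546 with the GC content of the longest coding transcript, and the median log2 ratio went from -0.59 in the lowest to 0.70 in the highest of 20 groups. After subtraction of the median of genes with like GC content, *Sfrp2* had a log2 ratio of 2.68, *Wnt2* of 2.12, *Notum* of 2.02, *Wnt1* of 1.62, *Sost* of 1.59, *Wnt2b* of -2.14 and *Ror1* of -2.85. These 7 genes remained past 3-fold, *Sost* by a small margin, whereas *Sfrp4* did not. Markers of other tissues also moved between the parietal libraries. Higher by more than 3-fold in the labelled *Twist1*+/- parietal library were 10 of 12 nasal epithelium markers (84.9 against 2709 FPKM in sum), 7 of 12 brain markers (107 against 395 FPKM), 5 of 10 keratinocyte markers (4.77 against 26.6 FPKM) and 4 of 7 tooth markers (4.85 against 128 FPKM). Of 9 cartilage markers 3 were lower (44.0 against 31.2 FPKM in sum). The part of these tissues in the Wnt pathway ratios was not tested.

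**Figure D3:**
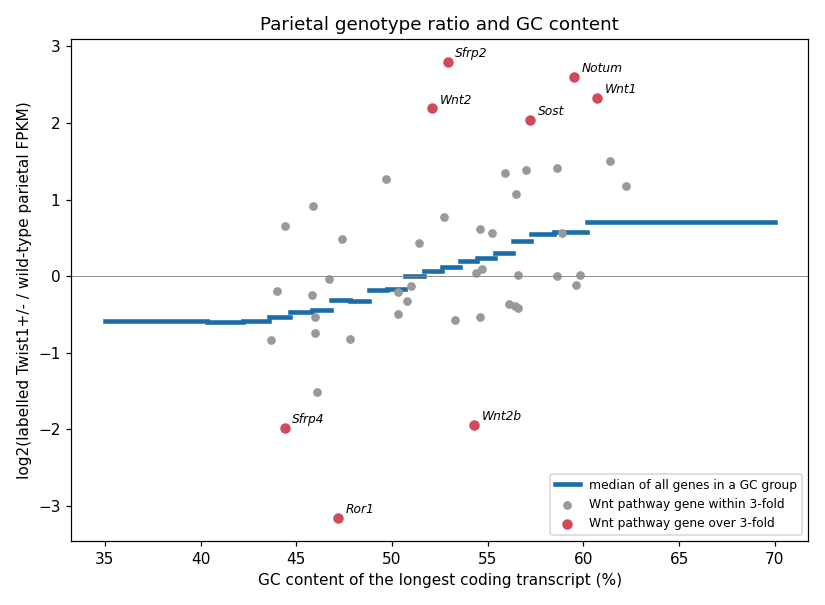
Log2 ratio of labelled *Twist1*+/- to wild-type parietal FPKM (vertical axis) against GC content of the longest coding transcript (horizontal axis, %) for the 46 Wnt pathway genes that reached 1 FPKM in either library. Blue steps give the median of all genes in each of 20 GC groups, going up from -0.59 to 0.70, with the outermost groups drawn only in part. Named genes passed 3-fold.

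Between the frontal bones, 2 of 46 Wnt pathway genes that reached 1 FPKM had ratios past 3-fold (4.35%), 1 higher and 1 lower in *Twist1*+/- bone. This is close to the 3.89% of all 14341 genes (3.17% higher and 0.725% lower), and 42 of the 46 were within 2-fold, beside 93.4% of all genes. The median log2 ratio was 0.05, beside -0.04 for all genes. *Sfrp5*, a Frizzled-related inhibitor, was at 0.250 FPKM in wild-type and 1.16 in *Twist1*+/- frontal bone, a 4.64-fold difference (log2 2.21), and at 0.211 and 0.726 FPKM in the wild-type and labelled *Twist1*+/- parietal libraries. It was thus higher with the *Twist1*+/- label in both bones, but the parietal pair lay below 1 FPKM. *Wnt16*, a ligand linked to cortical bone mass, was at 1.79 FPKM in wild-type and 0.594 in *Twist1*+/- frontal bone, a 3.01-fold difference (log2 -1.59) at the edge of the threshold, and at 1.24 and 1.08 FPKM in the parietal bones. None of the 8 genes past 3-fold in parietal bone passed it in frontal bone, where 3.89% of all genes did. The share of all genes past 3-fold in parietal bone that also passed in frontal bone was not computed. Nothing is therefore read from this count. *Sfrp2* was 1.48-fold lower, *Notum* 1.04-fold lower, *Sost* 1.70-fold higher and *Sfrp4* 1.05-fold higher in *Twist1*+/- frontal than in wild-type frontal bone. *Sost* thus had the same direction in both bones and ranked 850 from the top of the frontal ratios. *Wnt2b* was 1.35-fold higher and *Ror1* 1.30-fold lower. *Wnt1* (1.07-fold higher) and *Wnt2* (2.46-fold lower) were below 1 FPKM in both frontal libraries. Sums of marker lists differed here as well, with 13 of 14 skeletal muscle and 8 of 12 nasal epithelium markers higher and 5 of 12 meningeal markers lower by more than 3-fold in *Twist1*+/- frontal bone, and their part was not tested.

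**Figure D4:**
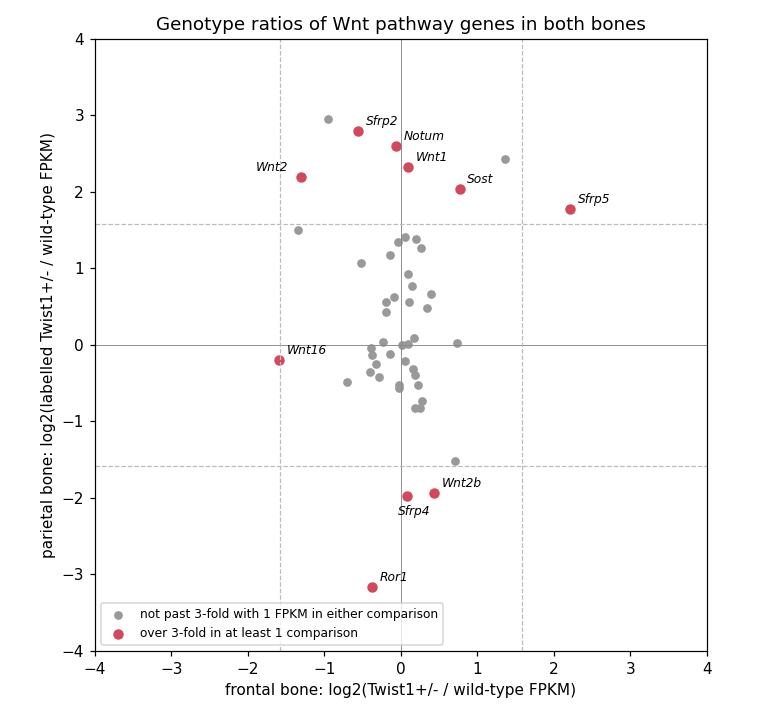
Log2 ratio of *Twist1*+/- to wild-type FPKM in frontal bone (horizontal axis) and in parietal bone (vertical axis, by label) for the 49 Wnt pathway genes that reached 1 FPKM in any library. Dashed lines mark 3-fold; red genes passed 3-fold with at least 1 FPKM in 1 or both of the comparisons. Most points spread along the parietal axis, and *Sfrp5* is the gene past the lines on both axes, with its parietal pair below 1 FPKM.

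Between the wild-type bones, 6 of 43 Wnt pathway genes that reached 1 FPKM had ratios past 3-fold (14.0%), 4 higher and 2 lower in parietal bone. Of all 14214 genes 13.3% did, with 4.07% higher and 9.2% lower. The median log2 ratio was 0.01 for these genes and -0.01 for all genes. This comparison shares a library with each genotype comparison, so its ratios are not independent of those. Higher in parietal bone were *Sfrp4* (7.70-fold), *Wnt2b* (4.22-fold), *Sostdc1* (3.28-fold), an inhibitor of both Wnt and BMP signalling, and *Wnt9a* (3.15-fold), and lower were *Wnt7a* and *Wnt6*. *Wnt7a* was at 1.91 FPKM in frontal and 0.0416 in parietal bone of wild-type mice and at 0.991 and 0.323 FPKM in those labelled *Twist1*+/-. Its ratio of 46.0-fold between the wild-type bones was 37 from the bottom of all log2 ratios, and with 1 FPKM added to each value the log2 difference was -1.48. *Wnt6* was at 3.62, 0.582, 1.43 and 1.65 FPKM in the same order, 6.23-fold lower in wild-type parietal than in wild-type frontal bone. Ratios between the wild-type bones followed transcript length, with a Spearman rho of -0.296 across 12852 genes, and its part in these ratios was not tested. *Wnt7a* and *Wnt6* were highest in wild-type frontal bone, the library with the highest sum of meningeal markers, of which 5 of 12 were lower by more than 3-fold in wild-type parietal bone (2090 against 165 FPKM in sum). Brain and nasal epithelium markers were lower there too, in 9 of 12 and 10 of 12 cases, whereas 13 of 14 skeletal muscle and 5 of 7 osteoclast markers were higher, and the part of these tissues was not tested. *Wnt9a*, at 1.52 FPKM in frontal and 4.80 in parietal bone of wild-type mice and at 1.73 and 3.65 FPKM in those labelled *Twist1*+/-, was higher in parietal bone of both genotypes. *Sostdc1* was at 0.833, 2.73, 1.37 and 0.949 FPKM, with wild-type parietal bone alone being high.

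Between the *Twist1*+/- bones, 3 of 47 Wnt pathway genes that reached 1 FPKM had ratios past 3-fold (6.38%), beside 4.09% of all 14305 genes. All 3 were higher in the labelled parietal library, where 0.846% of all genes were higher and 3.24% lower. The libraries are those of the genotype comparisons above, so these ratios too are not independent of them. The 3 genes were *Sfrp2* (9.34-fold), *Wnt2* (7.98-fold) and *Notum* (3.27-fold). The inhibitor *Notum* fell under 3-fold when the GC trend was subtracted (log2 1.38 in place of 1.71). The median log2 ratio of the 47 genes was 0.21, beside -0.03 for all genes. The higher value was in parietal bone for 35 of the 47. The like share over all genes was not computed, so nothing is read from this count. None of the 6 genes that separated the wild-type bones passed 3-fold with at least 1 FPKM between the *Twist1*+/- bones, where 4.09% of all genes did. The share of all genes past 3-fold between the wild-type bones that also passed here was not computed. Nothing is therefore read from the absence of overlap. That *Wnt7a* did not pass rests on the floor. At 0.991 FPKM in *Twist1*+/- frontal and 0.323 in the labelled parietal library, it was 3.07-fold lower in parietal bone, as in wild-type mice. *Sfrp4* was 1.85-fold higher, *Wnt9a* 2.10-fold higher and *Wnt2b* 1.23-fold lower in the labelled parietal library. Ratios between the *Twist1*+/- bones also followed transcript length, with a Spearman rho of -0.429 across 12979 genes, and GC content, with a rho of 0.416, and the part of transcript length in single ratios was not tested. Fewer markers of other tissues separated these bones: at most 2 of any list passed 3-fold in 1 direction, in the brain and tooth lists.

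**Figure D5:**
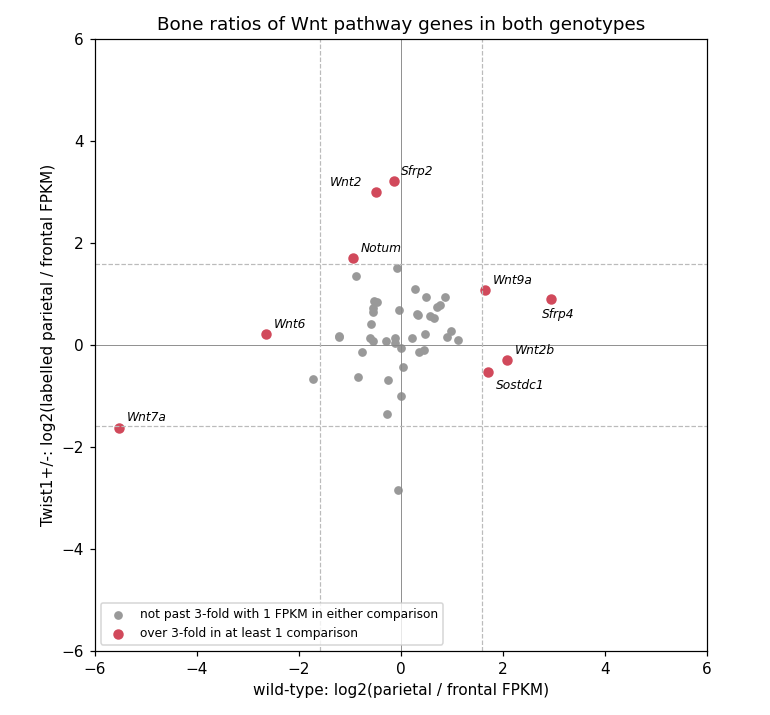
Log2 ratio of parietal to frontal FPKM in wild-type mice (horizontal axis) and in *Twist1*+/- mice (vertical axis, parietal by label) for the 49 Wnt pathway genes that reached 1 FPKM in any library. Dashed lines mark 3-fold; red genes passed 3-fold with at least 1 FPKM in 1 or both of the comparisons. *Sfrp4*, *Wnt2b*, *Sostdc1*, *Wnt9a*, *Wnt6* and *Wnt7a* lie out along the wild-type axis, and *Sfrp2*, *Wnt2* and *Notum* along the *Twist1*+/- axis. *Wnt7a* (log2 -1.62) and the unnamed *Ror1* (-2.84) also lie past 3-fold on the *Twist1*+/- axis, both below 1 FPKM in the *Twist1*+/- libraries.

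Of 74 other genes of the Wnt pathway with a value, which cover ligand secretion, R-spondin receptors, polarity receptors, cytoplasmic transducers, nuclear factors and targets, 59 reached 1 FPKM in the parietal comparison and 2 of those passed 3-fold (3.39%), beside 8.19% of all genes. *Dact2*, an intracellular modulator of Dishevelled, was at 0.525 FPKM in wild-type and 2.32 in labelled *Twist1*+/- parietal bone, and *Tnks*, the tankyrase that marks Axin proteins for degradation, was at 7.13 and 2.14 FPKM. Of these, *Dact2* had a log2 ratio of 1.44 and *Tnks* of -1.55 after subtraction of the GC trend, both under 3-fold. In the frontal comparison 0 of 65 passed 3-fold, beside 3.89% of all genes, and 65 of 65 were within 2-fold, beside 93.4%. The 65 include the targeted gene *Twist1* itself, listed among the targets, which was 1.94-fold lower in *Twist1*+/- frontal bone. Between the wild-type bones 7 of 63 passed 3-fold (11.1%, beside 13.3% of all genes), with *Tnfrsf19* and *Wisp2* higher in parietal bone and *Ndp*, *Dkkl1*, *Lgr5*, *Celsr2* and *Celsr3* higher in frontal bone. Between the *Twist1*+/- bones 4 of 66 did (6.06%, beside 4.09% of all genes), namely *Ndp*, *Celsr3*, *Apc2* and *Tnks*, all lower in the labelled parietal library. The names in these last comparisons were chosen after their values were seen.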

How the data were processed

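Per the labels and the methods of the study, strand-specific libraries of poly(A) RNA were read from 1 end over 75 bases, and the authors aligned the reads to mm9 with STAR 2.4.2a and quantified with Cuffdiff (Cufflinks 2.2.1) on an iGenomes annotation. The deposited tables give FPKM by gene; the scaling option and strand setting are not given in the sources used here. The methods speak of replicates, but each table holds 1 value per gene. FPKM values are not counts, so no count test was run. Judged from the spacing of low values in 513 to 776 genes, 1 read was worth about 1.27 times as many FPKM in *Twist1*+/- frontal as in wild-type frontal bone, 1.33 times as many in wild-type parietal as in *Twist1*+/- frontal bone, and 0.973 times as many in the labelled *Twist1*+/- parietal as in the wild-type parietal library, so wild-type frontal bone was the deepest; absolute depth and counting intervals cannot be taken from these values.

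Ratios, counts past 3-fold and medians were computed in Python 3.11.15 with pandas 2.3.3, numpy 2.4.6 and scipy 1.17.1, over all genes at or above 1 FPKM in the higher library; medians leave out genes at 0. A gene listed at 0 would be counted but given no fold. Code was tested on simulated data. GC content, length, positions and exon overlaps came from GENCODE M1 (mm9), which gave a GC value for 80.8% of genes and for 56 of 56 members. Members, gene lists and tests were chosen with earlier results of these data known. Members past 3-fold in any comparison or at or above 10 FPKM were to be given in full, and other pathway genes past 3-fold in a genotype comparison were named. Promoters came from RefSeq (GRCm38.p6), with 37 of 56 members matched. For each count of members 8 alternatives were tried: another fold, 2 other floors, 2 pseudocounts, genes above 0 in both libraries, scaling to the same median ratio and subtraction of the GC trend; single ratios were also scaled to *Gapdh*.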

Additional observations from a re-analysis of the deposited data

Results flagged for a closer look

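Of the 10 Wnt pathway genes past 3-fold in a genotype comparison, 5 had ratios of opposite sign in the 2 bones, each from 1 library per condition, and these differences were not tested. The like share over all genes was not computed, so nothing about the group is read from this count. The log2 ratio in parietal bone minus that in frontal bone was 3.49 for *Wnt2* (2.19 against -1.30), 3.36 for *Sfrp2* (2.80 against -0.56) and 2.65 for *Notum* (2.60 against -0.06). It was -2.37 for *Wnt2b* (-1.94 against 0.43) and -2.06 for *Sfrp4* (-1.98 against 0.08). The frontal ratios of *Notum* and *Sfrp4* were close to 0, so for these the opposite sign carries little, and *Wnt2* was below 1 FPKM in both frontal libraries.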

How the results depend on the processing

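No paired analysis was possible because each condition had 1 library, and no library could be left out for the same reason. Of 8 members counted between the parietal bones, the count was 16 with a 2-fold threshold and 4 both with a floor of 10 FPKM and with 1 FPKM added to each value; these 4 were *Sfrp2*, *Sfrp4*, *Sost* and *Notum* in either case. Between the frontal bones 2 were counted, which became 4 with a 2-fold threshold, 0 with a floor of 10 FPKM or 1 FPKM added, and 1 with 0.1 FPKM added, with scaling to the same median ratio or with the GC trend subtracted. The 6 between the wild-type bones became 11 without a floor and 1 (*Sfrp4*) with a floor of 10 FPKM or 1 FPKM added. The 3 between the *Twist1*+/- bones became 9 with a 2-fold threshold, 6 without a floor and 1 (*Sfrp2*) with 1 FPKM added. All-gene shares moved with them, for example to 20.2% with a 2-fold threshold and 3.29% with 1 FPKM added in the parietal comparison. The median log2 ratio of members moved by more than 0.1 only with a floor of 10 FPKM, to 0.56 between the parietal bones, 0.21 between the wild-type bones and 0.58 between the *Twist1*+/- bones. Among 95 alternative values of 19 single ratios, 74 stayed past 3-fold in the same direction, 21 fell under it, 13 of them with 1 FPKM added, and 0 changed sign. Only 5 of the 19 stayed past 3-fold under all 5 alternatives. Scaling to the median ratio shifted every log2 ratio by -0.03 to 0.08, depending on the comparison, whereas scaling to *Gapdh* shifted those of the parietal comparison by 0.39 and those between the wild-type bones by -0.44. The GC check covers 80.8% of all genes.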

Other observations

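Some other genes of the pathway stood apart in wild-type parietal bone without passing 3-fold in a genotype comparison, and they were chosen after their values were seen. *Wls*, the carrier that brings Wnt ligands to the cell surface, was at 50.1 FPKM in frontal and 104 in parietal bone of wild-type mice and at 49.9 and 42.1 FPKM in those labelled *Twist1*+/-. *Tnfrsf19* was at 33.3, 100 and 37.7 FPKM in the first 3 of these libraries and at 40.0 FPKM in the last. *Wisp2* was at 7.22, 54.1, 8.89 and 22.5 FPKM, a pattern that, like that of *Sfrp4*, is highest in wild-type parietal bone and next highest in the labelled *Twist1*+/- parietal library. On the other side, *Myc* was at 16.7, 6.03, 13.1 and 15.4 FPKM and *Tle3*, a corepressor of TCF factors, at 16.7, 7.94, 21.5 and 23.2 FPKM. Wild-type parietal bone was thus the lowest, as it was for *Lrp5*, *Sost* and *Notum*. Subtracting the GC trend changed the parietal log2 ratios of *Wls* from -1.30 to -0.71, *Tnfrsf19* from -1.33 to -1.14 and *Wisp2* from -1.27 to -1.72. Those of *Myc* went from 1.35 to 1.23, *Tle3* from 1.55 to 1.09 and *Lrp5* from 1.41 to 0.84.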
